A study of Mus musculus with 289 samples.

Results

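The cells described here were 30 single astrocytes labelled with the Trps1 guide RNA (gRNA) and day 21, set against 23 astrocytes labelled as carrying no gRNA. All 53 came from the count table of batch 5, which held 79 of the 289 samples of the series, and they were chosen by their labels alone. The study injected a lentivirus named Mok-LV, made to act in astrocytes, into the cerebral cortex of adult transgenic mice that express Cas9, the nuclease that a gRNA directs to a gene. Astrocytes were then drawn 1 at a time with an electrophysiology pipette and made into Smart-seq2 libraries, a full-length method without molecular identifiers. Both groups were labelled as brain astrocytes, and their protocol text named the same transgenic mice and virus. The Trps1 gRNA cells were collected 21 days after injection, whereas the no gRNA cells carried the word Adult in place of a day. The sources used here do not say whether the animals of the no gRNA cells received a virus, nor the sex or exact age of any animal or the driver of Cas9. The same batch held 21 cells with a Sox9 gRNA at day 21 and 5 in-slice controls, which are labelled as holding no cell.

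The labels name no animal, so each group was 1 pool of cells and no test was possible across animals. Titles fell into series whose meaning is not given: 21T (9 cells), 21T2 (10 cells) and 21T3 (11 cells) for the Trps1 gRNA, and AG (11 cells) and 2AG (12 cells) for no gRNA. The leading differences below are therefore given with their values in all 5 title series, which are not known to be animals. The guide, the virus, the injection, the day and the title series cannot be told apart in this design.

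Trps1 is a zinc finger transcription factor that binds GATA sequences and mostly represses the genes it binds, and it is best known for its part in cartilage and hair. Sox9 is a transcription factor of astrocytes and of cartilage. Astrocytes take up transmitters, buffer ions and supply neurons with fuel, and they carry receptors for adenosine, GABA, noradrenaline and peptides. Class I molecules of the major histocompatibility complex (MHC), built from a heavy chain and beta-2-microglobulin, show peptides from within the cell, and class II molecules, assembled with the chain Cd74, show peptides taken up from outside. Resting cortical astrocytes have little of either, and in the brain class II molecules are best known from microglia and other myeloid cells.

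The 250 bases before the start of transcription are printed for 2 genes that were higher and 2 that were lower in the Trps1 gRNA cells, because Trps1 and interferon factors act through motifs of the kinds searched. B2m, Adora2b and Gabrg1 are markers given for this comparison, and Ctss was picked after its values and match were seen. They are RefSeq starts on GRCm38.p6, each 5′ to 3′ on the gene's strand. Capitals mark matches on either strand to the GATA motif searched (AGATAA or TGATAA) or to an interferon-type motif (GAAA, any 2 bases, then GAAA).
B2m, chr2:122147437-122147686, plus strand: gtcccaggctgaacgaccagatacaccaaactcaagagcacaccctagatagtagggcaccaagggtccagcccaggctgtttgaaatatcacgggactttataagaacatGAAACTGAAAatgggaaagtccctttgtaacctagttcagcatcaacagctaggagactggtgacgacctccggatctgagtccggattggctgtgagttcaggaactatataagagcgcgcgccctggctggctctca
Ctss, chr3:95526536-95526785, plus strand: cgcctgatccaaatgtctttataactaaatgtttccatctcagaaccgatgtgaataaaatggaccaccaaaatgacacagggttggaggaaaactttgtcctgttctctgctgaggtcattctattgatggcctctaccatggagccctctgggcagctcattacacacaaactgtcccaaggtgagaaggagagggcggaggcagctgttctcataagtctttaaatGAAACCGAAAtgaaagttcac
Adora2b, chr11:62248734-62248983, plus strand: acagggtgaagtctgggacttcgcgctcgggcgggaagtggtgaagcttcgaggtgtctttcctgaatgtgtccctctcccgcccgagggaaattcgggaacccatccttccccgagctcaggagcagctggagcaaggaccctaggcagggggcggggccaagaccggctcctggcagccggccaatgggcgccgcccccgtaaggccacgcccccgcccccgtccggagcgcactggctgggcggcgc
Gabrg1, chr5:70842618-70842867, minus strand: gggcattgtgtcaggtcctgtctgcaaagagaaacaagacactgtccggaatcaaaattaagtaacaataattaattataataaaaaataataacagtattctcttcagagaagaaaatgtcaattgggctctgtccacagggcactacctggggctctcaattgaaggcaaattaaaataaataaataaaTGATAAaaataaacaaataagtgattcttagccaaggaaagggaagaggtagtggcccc
The B2m and Ctss windows each held 1 interferon-type match, the Gabrg1 window held 1 GATA match, and the Adora2b window held neither. The windows of H2-K1, H2-D1 and Psmb8, which were also higher, held no match to the interferon-type letters searched. Those of Per1, Dhcr7, Igfbp2, Slc35f6 and Cwc22, which were also lower, held no match to the GATA letters searched. Of the promoters of all genes tested below, 2.49% held the interferon-type motif and 9.25% the GATA motif. The shares among genes higher in the Trps1 gRNA cells were 2.83% and 8.02%, and among genes lower they were 2.69% and 10.02%, over 424 promoters of 345 of the 438 higher genes and 409 promoters of 311 of the 415 lower genes. A match describes these letters and is not a binding site. A window without a match to these exact letters can still hold another form of such a motif.

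The Trps1 gRNA pool held 26463916 reads in genes (188896 to 1521798 per cell, median 901014) and the no gRNA pool 17614503 (109811 to 979318, median 803313). The median cell had 4731.5 and 5000 genes with a read, but within the no gRNA cells the medians were 4112 in AG and 6597 in 2AG. Levels are given as CPM, the counts of the summed pool scaled to its total of reads in genes. An exact 95% Poisson interval or, for shares of cells, an exact (Clopper-Pearson) one covers counting error only, since reads copied by PCR are not separate molecules. Ribosomal RNA differed between the pools: 1 gene annotated as ribosomal RNA, CT010467.1, took 33.1% of the no gRNA reads (43.2% in AG and 24.8% in 2AG) and 13.4% of the Trps1 gRNA reads (12.5% to 14.5% in the title series). In a comparison of CPM this raises the other genes of the Trps1 gRNA pool together: the median log2 ratio over all genes tested was 0.41, and 0.05 when ribosomal RNA was left out of the totals. Log2 ratios below are of CPM with 5 added to each pool and should be read against that median of 0.41.

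The labelled astrocyte markers were present in both pools. Slc1a2, the main glutamate transporter, stood at 2177 CPM against 2124 CPM, with reads in all 30 and all 23 cells. Aqp4, the water channel of endfeet, stood at 533 against 468 CPM. In the in-slice controls the same genes were at 52.3 and 111 CPM. Summed over a list of astrocyte identity genes, the median cell had 57185 against 66930 CPM. The lowest cells, at 5532 and 7932 CPM, lay within the range of the in-slice controls (3149 to 19567 CPM). By this sum such cells cannot be told apart from libraries labelled as holding no cell.

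The targeted gene, Trps1 (ENSMUSG00000038679, chr15:50654752-50890463 on the minus strand, GRCm38), was at 57.6 CPM (95% interval 54.8 to 60.6) in the Trps1 gRNA pool and at 91.9 CPM (87.4 to 96.4) in the no gRNA pool. Reads were found in 13 of 30 cells (43.3%, 25.5 to 62.6) and in 17 of 23 cells (73.9%, 51.6 to 89.8). Per cell the Trps1 gRNA cells ran from 0 (also their median) to 792 CPM and the no gRNA cells from 0 to 706 with a median of 12.6, so the groups overlapped over nearly their whole range. By title series Trps1 was at 41.4 CPM in 21T, 123.6 in 21T2 and 9.2 in 21T3, and at 163.9 in AG and 32.3 in 2AG. The 21T2 cells were thus above one no gRNA series and below the other.

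The log2 ratio of Trps1 was -0.63, short of the 2-fold limit used here. With ribosomal RNA left out of the totals it was -1.02, which together with the lower share of cells passed that limit. The sign turned without the 21T3 cells (0.06) or without the AG cells (0.75), so these libraries do not settle whether Trps1 RNA was lower. A gRNA edits DNA and can leave the RNA in place, and reads were not resolved along the gene here.

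Sox9 (ENSMUSG00000000567, chr11:112782224-112787760), which was not targeted in these cells, stood at 664 CPM (655 to 674) against 309 CPM (300 to 317), with a read in 27 of 30 and 20 of 23 cells. The Trps1 gRNA cells ran from 0 to 2450 CPM with a median of 417, and the no gRNA cells from 0 to 1074 with a median of 251. All 3 Trps1 gRNA series (482, 1073 and 399 CPM) were above both no gRNA series (259 and 349). The log2 ratio was 1.09, but the shares of cells differed by less than 20 percentage points, so Sox9 did not pass the rule described next. With ribosomal RNA left out the log2 ratio was 0.70 and 21T3 (460.0 CPM) was below both AG (472) and 2AG (480), so the order of the series did not hold on that scale.

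**Figure D1:**
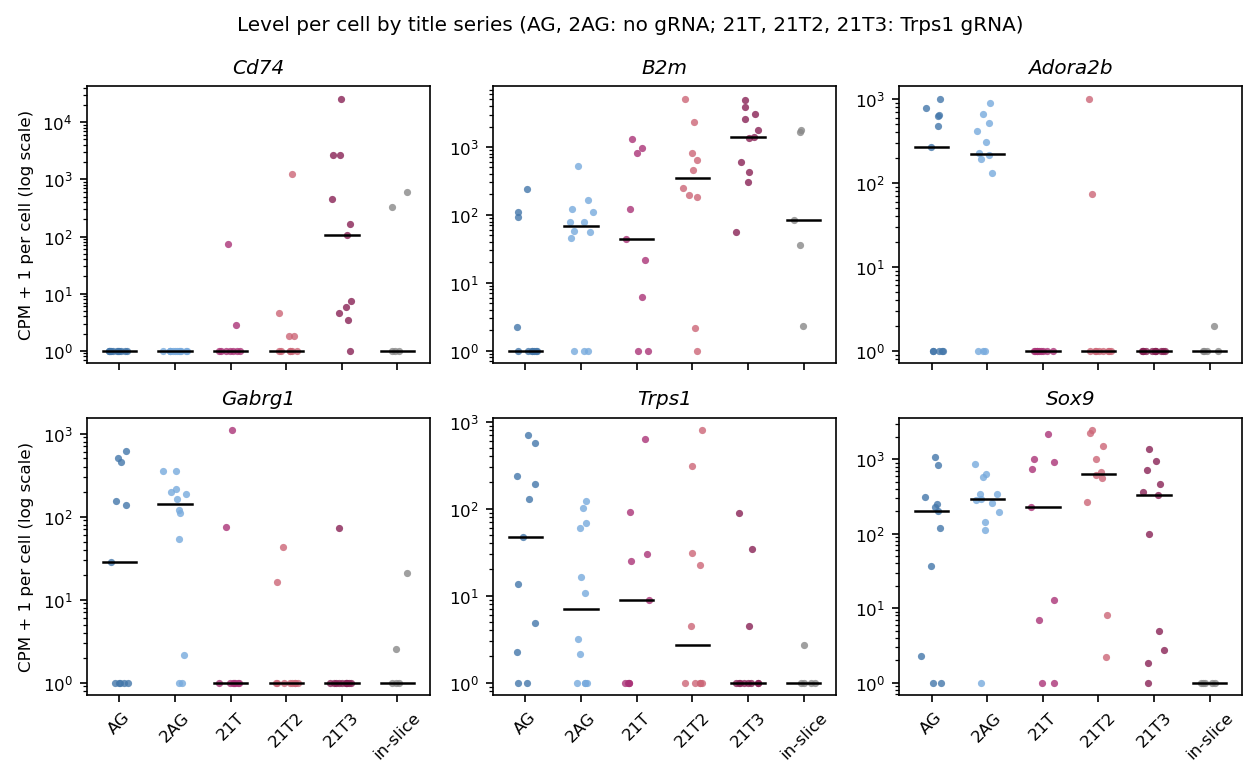
CPM per cell, with 1 added, on a log axis for the 6 genes Cd74, B2m, Adora2b, Gabrg1, Trps1 and Sox9, with 1 point per library, a bar at each median, and title series along the x axis (AG and 2AG are no gRNA, 21T to 21T3 Trps1 gRNA, grey the 5 in-slice controls). Cd74 is at 0 in all 23 no gRNA cells, Adora2b is at 0 in 28 of 30 Trps1 gRNA cells, and Trps1 overlaps between the groups.

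Genes of antigen presentation, microglia and lysosomes led those that were higher in the Trps1 gRNA cells, and receptors and transporters of astrocytes were among those that were lower. B2m was 21.2-fold higher and Ctss, a lysosomal protease, 85.1-fold higher, while Adora2b was 8.16-fold lower and Per1, a clock gene, 10.6-fold lower. A gene was tested at 5 CPM or more in the higher pool, and 12708 genes were. A gene was called higher or lower if its log2 ratio reached 1 either way, also without the highest cell of each pool for that gene, and its share of cells with a read differed by 20 percentage points or more in the same direction. By this rule 853 genes (6.71% of those tested) were called, 438 (3.45%) higher and 415 (3.27%) lower in the Trps1 gRNA cells. Of these, 295 (2.32%) and 273 (2.15%) also had their title series apart, with all 3 Trps1 gRNA series above, or below, both no gRNA series.

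The 2 no gRNA series weighed heavily on these counts. Leaving out AG gave 286 higher and 946 lower genes, and leaving out 2AG gave 2357 higher and 224 lower. The median log2 ratio over all genes tested was then 0.24 and 1.04. List values without AG or 2AG should be read against these medians. Without 21T2, 709 genes were higher, and without 21T, 649 were lower. The share of calls that were higher was 51.3%, and it ranged from 23.2% without AG to 91.3% without 2AG. Other scales moved it as well: it was 39.5% with ribosomal RNA left out, 38.3% with ratios centred on the median of all genes, 39.0% from the mean log2 level over cells and 60.2% with 20 CPM added. The scale without ribosomal RNA was chosen after seeing the data.

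**Figure D2:**
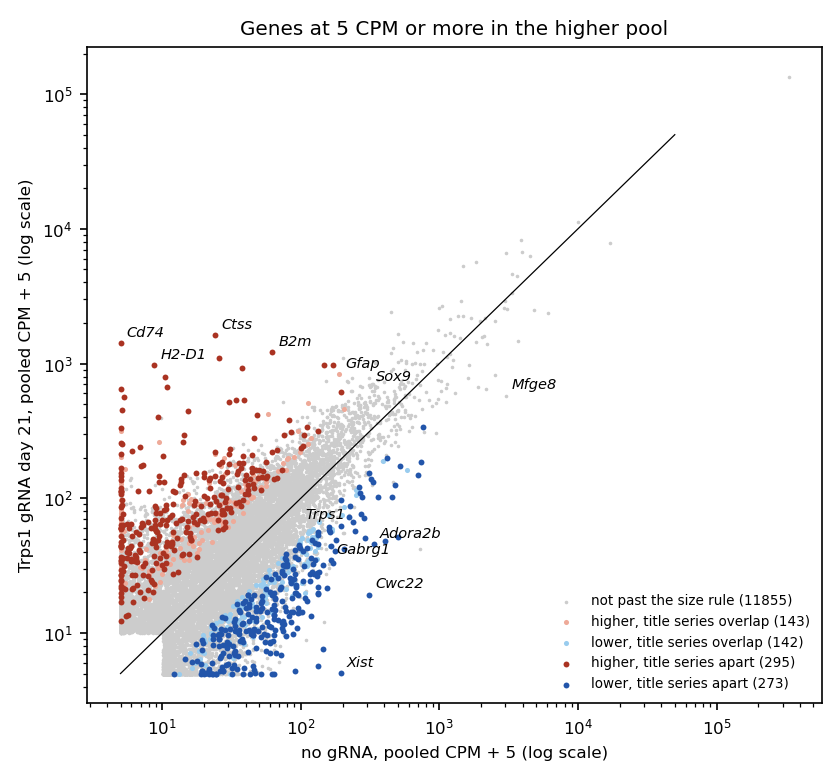
Pooled CPM of the 12708 genes tested, with 5 added, no gRNA on the x axis and Trps1 gRNA on the y axis, both log scales, and the line of equal level. Dark points are the 295 higher and 273 lower genes whose title series lay apart, with Cd74, Ctss, H2-D1 and B2m among those above the line and Adora2b and Gabrg1 among those below it.

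Among the genes that were higher, MHC class I and its peptide machinery stood out in level. Of 16 tested members of that list, 6 were higher and none lower (B2m, H2-K1, H2-D1, Psmb8, Psmb10 and Psme1), and the median log2 ratio was 1.57 beside 0.41 for all genes. Without 21T3 4 of them were called and without AG 3, at medians of 0.87 and 1.15.

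B2m (ENSMUSG00000060802, chr2:122147686-122153083, plus strand), the light chain of class I molecules, was at 1207 CPM (1193 to 1219.9) against 56.9 CPM (53.4 to 60.5), a 21.2-fold difference. It had a read in 27 of 30 cells (90.0%) and 13 of 23 (56.5%), and with every cell thinned to 200000 reads in 86.2% and 50.0%. The Trps1 gRNA cells ran from 0 to 5146 CPM with a median of 530, the no gRNA cells from 0 to 522 with a median of 45.2, and 15 of the 30 were above the highest no gRNA cell. The series stood at 430, 844 and 1844 CPM against 25.6 in AG and 82.8 in 2AG. The in-slice controls held 757 CPM of B2m, of which the highest library had 1782 CPM and the median 83.9.

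The class I heavy chains followed the same order of groups. H2-D1 was at 964 CPM against 3.7 CPM, and its 3 Trps1 gRNA series (326, 340 and 1761 CPM) were all above AG (7.8) and 2AG (0.4). H2-K1 was at 664 against 5.8 CPM, with 178, 490 and 1019 CPM in the 3 series against 1.0 and 9.9. The 2 heavy chains are near-identical in parts, so reads could be split between them and other class I genes. Psmb8, a catalytic subunit of the immunoproteasome that cuts peptides for class I, had 142 CPM against 1 read in the whole no gRNA pool. Its level in the in-slice controls, 374 CPM, was above that of the Trps1 gRNA cells.

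Class II genes rose mostly in 1 title series. Of 11 tested members, 7 were higher and none lower, with a median log2 ratio of 5.31, but only 1 was called without 21T3, at a median of 2.40. Cd74 (ENSMUSG00000024610, chr18:60803848-60812652), the chain that guides class II assembly, was at 1420 CPM and had a read in 16 of 30 cells (53.3%, 34.3 to 71.7). No read fell on it in the 23 no gRNA cells. Cd74 was 8335-fold above a floor of 3 reads over that pool (0.170 CPM), which is a convention and not an upper limit. The level of Cd74 was 5.2 CPM in 21T, 154 in 21T2 and 3088 in 21T3. The single highest cell, in 21T3, had 25943 CPM against a median of 0.85 and weighed heavily on that fold. Without its highest cell, the summed class II list of the Trps1 gRNA pool fell from 4891 to 2259 CPM. After thinning to 200000 reads, 11 of 29 cells kept a Cd74 read and 0 of 22. The log2 ratio of Cd74 was 8.15, and 4.44 without 21T3.

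The class II chains themselves were at or near 0 in the no gRNA cells. H2-Ab1 had 641 CPM against 0, with 1405 CPM in 21T3, 56.8 in 21T2 and 0.2 in 21T. H2-Aa had 312 CPM, at 698 in 21T3, 0 in 21T2 and 20.8 in 21T, and H2-Eb1 had 196 CPM, at 445 in 21T3 and 0.4 or less in the other 2 series. Summed over Cd74, H2-Aa, H2-Ab1 and H2-Eb1, cells ran from 0 to 44672 CPM with a median of 2.86, and 9 of 30 had 100 CPM or more. Among the in-slice controls, 1 library of the Sox9 series and the 1 of 21T3 had Cd74 reads, at 322 and 592 CPM.

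Interferon-induced genes gave 4 higher and no lower of 24 tested, with a median log2 ratio of 1.59. Without 21T 8 were higher and 1 was lower. Irgm1, an interferon-induced GTPase, was at 200.2 CPM against 5.1, with 54.0, 377 and 114 CPM in the 3 Trps1 gRNA series and 0 and 9.3 in the others. Ifitm3, a membrane protein that blocks virus entry, was at 126 against 4.5 CPM (55.6, 144 and 142 against 0.3 and 8.0). Gbp2, a guanylate-binding GTPase, was at 122 CPM against 0, but 21T was at 0 too. Lgals3bp was at 414 against 52.97 CPM, with 21T (45.2) below both no gRNA series (56.4 and 50.1). In the in-slice controls Irgm1 was at 3.1 CPM, Lgals3bp at 2.1 and Gbp2 at 0, whereas Ifitm3 was at 54.3.

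Genes best known from microglia, the resident macrophages of the brain, made up the largest block. Of 29 tested members of the microglia and macrophage list, 20 were higher, none was lower and all 29 had a log2 ratio above 0 (63.6% of all genes tested did), with a median of 4.23. The list shares 8 members with the complement, cathepsin and other lists. Its summed level was 10359 CPM in the Trps1 gRNA pool (6423 in 21T, 2945 in 21T2 and 18270 in 21T3) and 366 CPM in the no gRNA pool (290 and 430). Per cell it ran from 13.9 to 51061 CPM with a median of 3576, against 0 to 1227 with a median of 243, so 20 of 30 Trps1 gRNA cells were above the highest no gRNA cell.

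The members called included receptors and secreted products of these cells. Cx3cr1, the fractalkine receptor, was at 394 CPM against 4.4, with 442, 160.1 and 570 CPM against 9.0 and 0.5. Csf1r, the receptor that microglia need to survive, was at 514 against 25.5 CPM. Fcgr3, an antibody receptor, was at 446 against 0.11 CPM, and Laptm5, a lysosomal membrane protein of blood cells, at 436 against 10.4. P2ry12 and Tmem119, the usual markers of resting microglia, were at 166 against 21.6 and 88.7 against 18.1 CPM, but neither passed the rule. Of the list, 10 members were called without 21T3, 16 without AG and 25 without 21T2.

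In the in-slice controls the microglial list summed to 6728 CPM, against 10359 in the Trps1 gRNA pool, and the 5 libraries were unequal. The 2 with titles of the Sox9 series had 10562 and 22814 CPM, the 1 of 21T3 had 1344, and the 2 of 21T2 had 0 and 82.2. C1qc, Ctss, Tyrobp and H2-D1 stood there at 704, 889, 675 and 504 CPM, while Cx3cr1 was at 1.0, Olfml3 and Fcrls at 0.3 and Cd68 at 0.8. Leaving out all genes at 20 CPM or more in the in-slice controls also left fewer genes to test. Still called higher were 5 microglial genes, 3 of the 5 class II genes tested and 1 of 6 class I genes. So were 4 of 10 cathepsin or lysosome genes, 3 of 22 interferon genes and 0 of 6 complement genes. Over all 8763 genes tested 242 higher and 348 lower calls remained. RNA from outside the aspirated cell and RNA made in it cannot be told apart from these counts.

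Across the 30 Trps1 gRNA cells the summed microglial list and the summed class I genes (B2m, H2-K1 and H2-D1) went up together, with a Spearman coefficient of 0.78 and a Pearson coefficient of 0.63 on the log2 scale. For the class II sum the coefficients were 0.42 and 0.50, and for the astrocyte identity list -0.22 and -0.14. These describe cells that share title series and differ in depth, and none is a test. The part of microglial RNA in the MHC results was not tested.

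**Figure D3:**
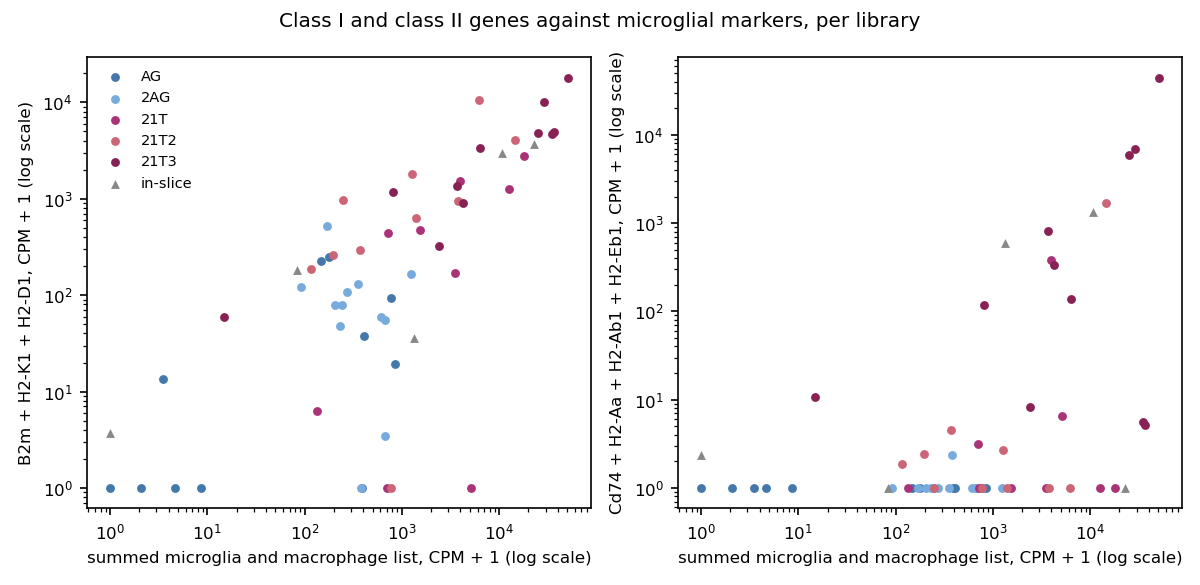
Per library, the summed microglia and macrophage list (x axis) against class I genes (left) and class II genes (right), as CPM with 1 added on log axes, coloured by title series, with triangles for the in-slice controls. On the x axis 20 Trps1 gRNA cells are above the highest no gRNA cell (1227 CPM), on the class I axis 18 are (522 CPM), and the highest class II sum (44672 CPM) is in 21T3.

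Complement, chemokine and lysosomal genes were higher in the same direction. Of 12 complement genes tested 5 were higher (C1qa, C1qb and C1qc among them), of 21 chemokines and cytokines 4 were higher (Ccl3, Ccl4, Ccl5 and Il1a) and 1 lower (Cxcl14), and of 24 cathepsin and lysosome genes 8 were higher and none lower. The medians were 2.71, 1.59 and 1.53 on the log2 scale. Without 21T3 no chemokine and 5 lysosomal genes were called, and without AG 3 complement genes were higher and 1 was lower. C1qc, a chain of the first complement component, was at 789 CPM against 5.4, with 66.0, 295 and 1513 CPM in the 3 Trps1 gRNA series and 0.1 and 9.8 in the no gRNA series. C4b, which astrocytes also make, was at 131 against 16.8 CPM.

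Ctss, the cathepsin that trims Cd74, was at 1614 CPM against 18.96, an 85.1-fold difference, with 479, 456 and 3074 CPM in the 3 series against 13.2 and 23.8. Ctsz and Lgmn, 2 further lysosomal proteases, were at 972 against 141 and 977 against 165 CPM. Ccl5, a chemokine for T cells, had 163 CPM and no read in the no gRNA cells, and stood at 349.6 CPM in 21T3 against 11.4 and 19.2 in the other 2 series. Ighm, the heavy chain of IgM, was at 325 CPM against 1 read, with a read in 13 of 30 cells, and at 286 CPM in the in-slice controls. Of 18 lymphocyte genes, 8 were in the table and 3 reached 5 CPM. Gzmb, 1 of those 3, had reads in 3 of 30 cells and stood at 342 CPM in 21T2 and 0.2 or less in 21T and 21T3.

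Genes of the reactive astrocyte state gave 5 higher and no lower of 27 tested, with a median log2 ratio of 1.64. Without AG 3 were higher and 1 was lower. Gfap, the intermediate filament of reactive astrocytes, was at 827 CPM (816 to 838) against 184 (178 to 191). Its cells ran from 0 to 3673 CPM with a median of 607 against 0 to 1608 with a median of 0. The level was 965 CPM in 21T2 and 1039 in 21T3, whereas 21T (62.8) lay below AG (160.4) and 2AG (204). Vim, another intermediate filament, was at 141 against 18.8 CPM and was even among the series (146, 163 and 121 against 16.2 and 21.1). In the in-slice controls Gfap was at 0.77 CPM and Vim at 2.05. Serpina3n, an acute-phase inhibitor, was at 255 against 106 CPM and was not called.

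Of the 15 leading genes that were lower, 3 were receptors (Adora2b, Gabrg1 and Adra1a). Adora2b (ENSMUSG00000018500, chr11:62248984-62266453, plus strand), a low-affinity adenosine receptor coupled to cyclic AMP, was at 40.6 CPM (38.2 to 43.1) against 331 (323 to 340), 8.16-fold lower. Reads were in 2 of 30 cells (6.67%, 0.818 to 22.1) and in 15 of 23 (65.2%, 42.7 to 83.6), and after thinning in 6.90% and 68.2%. It was at 0 in 21T and 21T3 and at 110 CPM in 21T2, where 1 cell had 1008 CPM, against 354.5 in AG and 312 in 2AG. Nearly all Trps1 gRNA cells were at 0, and the 15 no gRNA cells with a read reached 996 CPM. The log2 ratio of Adora2b, -2.88, kept its sign without any 1 series (-2.12 without 21T3 to -6.07 without 21T2). Of the 11 purine genes tested it was the only one called.

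Gabrg1 (ENSMUSG00000001260, chr5:70751047-70842617, minus strand), a subunit of GABA-A receptors that astrocytes carry, was at 29.97 CPM (27.9 to 32.1) against 159 (153 to 165), 5.30-fold lower. It was read in 5 of 30 cells (16.7%) and 16 of 23 (69.6%), and after thinning in 17.2% and 63.6%. In 21T it reached 131 CPM through 1 cell at 1091 CPM, and it was at 5.4 and 7.2 in 21T2 and 21T3 against 167 and 152 in AG and 2AG. Of 14 GABA receptor genes tested, Gabra2 was the other one called lower (30.99 against 71.9 CPM), and Gabrb1 stood at 304 against 237. The median of that list was 0.37 and, with ribosomal RNA left out, -0.02.

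Of 20 other G protein-coupled receptors tested, 2 were lower and none higher. Adcyap1r1, the receptor of the peptide PACAP, was at 66.1 against 279 CPM (157, 84.8 and 11.2 against 248.6 and 305). Adra1a, an alpha-1 noradrenaline receptor, was at 6.0 against 68.1 CPM, with a read in 3 of 30 and 12 of 23 cells. The median log2 ratio of the list was -0.41. It was 0.06 without 2AG, beside 1.04 for all genes, and without 21T2 6 genes of the list were lower and 2 higher.

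Slco1c1, Dio2 and Slc38a3, which serve thyroid hormone and glutamine supply, were lower. Slco1c1, the thyroxine transporter, was at 143 CPM (139 to 148) against 691 (678 to 703), with a read in 11 of 30 and 21 of 23 cells. The series stood at 319, 188 and 29.7 CPM against 953 and 473. Dio2, the enzyme that turns thyroxine into its active form, was at 120.1 against 476 CPM (368, 51.0 and 72.2 against 495 and 459). Slc38a3, which exports glutamine, was at 181 against 728 CPM (310.5, 243 and 73.9 against 1034 and 475). In the in-slice controls Slco1c1 was at 2.6 CPM and Slc38a3 at 0.3, while Dio2 was at 151, above the Trps1 gRNA pool.

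Igfbp2, a binding protein of insulin-like growth factors, was at 97.1 CPM against 448 and the level was the same in AG (449) and 2AG (447). The 3 Trps1 gRNA series were at 61.8, 6.1 and 189 CPM. Within the list of growth factor binding and thyroid hormone genes 4 of 15 were lower (Slco1c1, Dio2, Igfbp2 and Ttr) and 1, Igfbp4, was higher (65.5 against 17.1 CPM). The median log2 ratio of that list was 0.81, and 10 of 15 were above 0. In the list of glutamate and GABA handling 2 of 20 were lower, with a median of 0.12.

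Per1, a core gene of the circadian clock, was at 47.0 CPM (44.4 to 49.7) against 498 (488 to 509), 10.6-fold lower. Its cells ran from 0 to 568 CPM with a median of 0.43 against 0 to 1689 with a median of 303. The series were unequal on both sides, at 160, 3.5 and 35.1 CPM against 824 in AG and 229 in 2AG. Of 19 clock genes tested the only other one called was Bhlhe41, a repressor of the clock, at 141 against 52.3 CPM, and it lost its call with ribosomal RNA left out or without AG. The sources used here give no time of day for the collection.

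Dhcr7, the last enzyme of cholesterol synthesis, was at 43.6 CPM against 397, 9.11-fold lower, with 27.2, 68.2 and 29.9 CPM against 419 and 379. It was the only one of 27 tested genes of cholesterol and fatty acid synthesis that was called, and the list's median was 0.04. Slc35f6, a transporter-like protein of lysosomes and mitochondria, was at 2.6 against 139.9 CPM (13.2, 0 and 0.3 against 141 and 139). Npepl1, Smpd2, Zfp949, Cdh19 and Map3k19 were also among the leading genes that were lower, and Map3k19 stood at 1.8 against 67.6 CPM. Ttr, the thyroxine carrier made by the choroid plexus, was at 8.3 against 113 CPM, with 0, 17.8 and 3.9 CPM in the 3 Trps1 gRNA series against 27.7 in AG and 183 in 2AG.

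**Figure D4:**
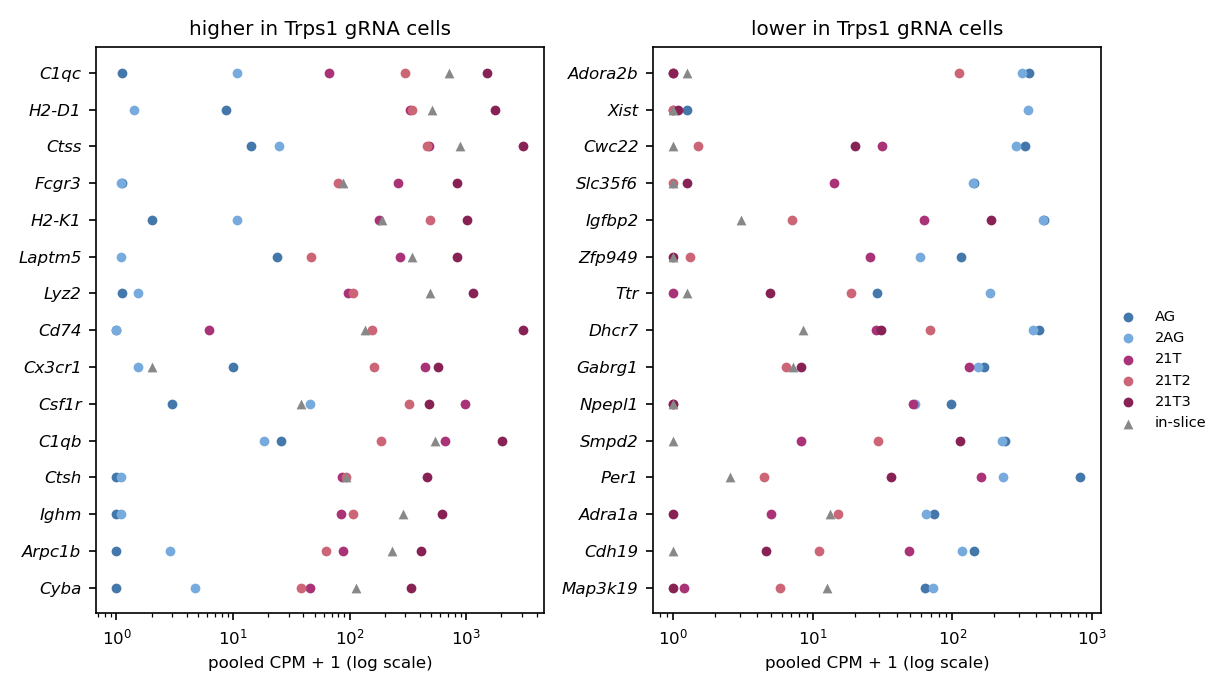
Pooled CPM with 1 added (log axis) in each title series for the 15 leading genes higher (left) and lower (right) in the Trps1 gRNA cells, with grey triangles for the pooled in-slice controls. Most of the genes on the left are also high in the in-slice controls, with Cx3cr1 (1.0 CPM) and Csf1r (37.4 CPM) lowest, and those on the right are at 12.3 CPM or below there.

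With ribosomal RNA in the totals, the summed level of astrocyte identity genes differed little, while the median ratio of that list lay below that of all genes. Of 49 genes 3 were lower (Slco1c1, Chrdl1 and Slc6a11) and none higher, the median log2 ratio was -0.23, and the summed level was 63820 against 65974 CPM. From the mean log2 level over cells the median was -1.29 and 10 genes were lower. With ribosomal RNA left out the median was -0.63 and 5 genes were lower, and without 21T3 the median was 0.04. In 16 of the 49 all 3 Trps1 gRNA series were below both no gRNA series, a larger share than the 7.89% of all genes tested. Mfge8, a secreted bridging factor, was at 574 against 3004 CPM (1416, 449 and 318 against 3188 and 2851), but the share of cells kept it from a call. Bcan, a proteoglycan of the matrix, was at 640 against 2166 CPM, and Gpr37l1, a receptor of astrocytes, at 1456 against 3692, both with their series apart. Slc1a2 and Aqp4, given above, and Sparcl1 (2904 against 2958 CPM) differed little on that scale, and Aldoc was at 6619 against 3016. With ribosomal RNA left out, Slc1a2 was at 2545 against 3283 CPM, Aqp4 at 623 against 723 and Sparcl1 at 3396 against 4572. Aldoc was then at 7740 against 4662 CPM.

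Other groups had few calls. Among matrix and cartilage genes, where Trps1 has its best known part, 4 of 24 were lower and none higher, with a median of -0.44 that was -0.02 without 21T3 or without 2AG, where 2 were called. Prelp, a leucine-rich matrix protein, was at 27.2 against 139 CPM, and Col16a1 at 37.8 against 111. Of 24 genes that partner with Trps1 or are linked to it, none was called, and the median of 0.77 was 0.56 with ribosomal RNA left out. Without 2AG 6 of them were higher and 1 was lower, and without 21T 3 were higher and 1 was lower. Of all 12298 genes tested without 2AG, 2357 were higher and 224 lower. Among 31 astrocyte transcription factors Sox5 was higher (110.4 against 36.4 CPM) and Hopx (1.0 against 18.1) and Emx2 (3.1 against 12.4) lower. In the glycogen, glucose and lactate list 4 of 20 were lower (Slc2a1, Pdk4, Ppp1r3g and Pygm), and none was called without 21T3, 2 without 21T and 1 without 2AG. In the Notch, BMP, Wnt, FGF and hedgehog list 3 of 32 were lower, Fgfr1 (26.7 against 100.3 CPM), Fzd2 and Etv4, and without 21T 7 were lower and 1 was higher.

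Of 17 genes of the p53 response, which can follow a cut by Cas9, none was called, with a median of 1.01 that was 0.37 without the highest cell for each gene, and 5 were called higher without 2AG. Ccnd1 was the only one of 13 cell cycle genes called (51.0 against 6.9 CPM), a call lost without 21T or without AG. None of 11 neurogenic and immature neuron genes was called, but 3 were higher without 2AG. Of all 12298 genes tested without 2AG, 2357 were higher, at a median log2 ratio of 1.04. Among 23 immediate early genes, Fosb and Jund were higher and Nr4a1 was lower (331 against 754 CPM), and Fos was at 2071 against 1951. Fosb lost its call with ribosomal RNA left out, and its level in AG (75.8 CPM) was above those in 21T2 (58.2) and 21T3 (29.9). The median of that list was 0.20 and turned to -0.20 with ribosomal RNA left out.

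Marker lists of other cell types held few calls. Of the 3 lymphocyte genes tested, Ighm was the one called, at a list median of 4.72. Of 4 genes of pericytes, smooth muscle and fibroblasts, Col1a1 was lower (7.1 against 30.4 CPM), and of 3 of ependyma and choroid plexus Ttr was. No gene was called among 9 excitatory, 7 inhibitory and 14 pan-neuronal genes, 11 oligodendrocyte genes and 8 genes of their progenitors. Without 2AG 3 excitatory and 3 inhibitory genes were higher, at medians of 1.71 and 2.38. Of all 12298 genes tested without 2AG, 2357 were higher, at a median of 1.04. Pan-neuronal genes summed to 6719 against 4191 CPM, and AG, at 2018, was below all other series (5519 to 8022). Of 13 endothelial genes none was called, and the median of 1.65 was 0.02 without the highest cell for each gene and -0.80 over the 3 genes tested without 21T. Hbb-bs and Hba-a1, haemoglobin genes of red blood cells, were both lower (6.0 against 47.1 and 4.8 against 31.1 CPM), with 8 and 6 of 30 cells holding a read against 21 of 23 for each.

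**Figure D5:**
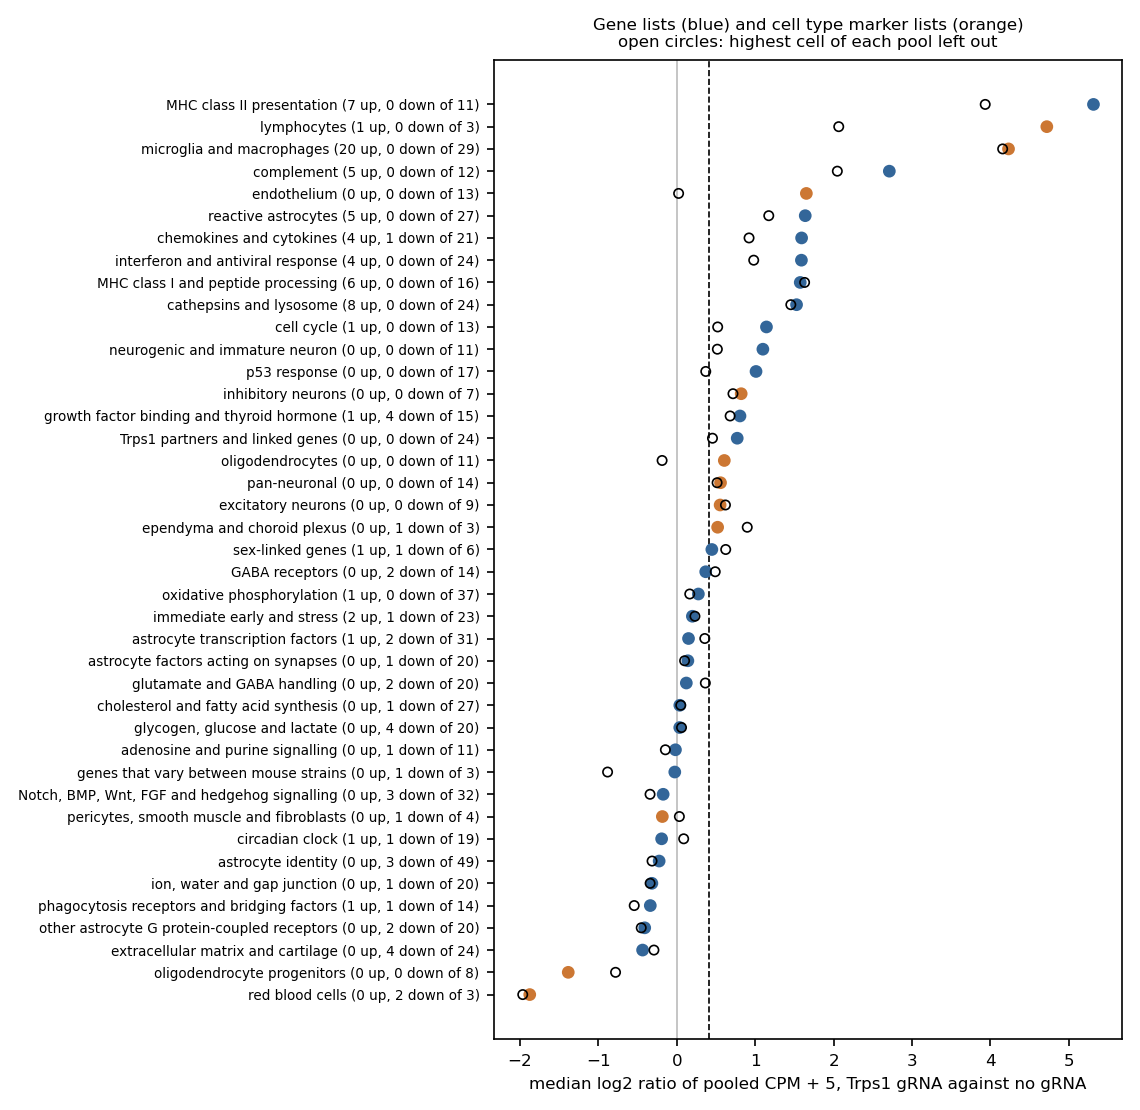
Median log2 ratio (x axis) of each list with 3 or more tested genes, filled for all cells and open without the highest cell of each pool for the gene, blue for gene lists and orange for cell type markers, with the dashed line at the median of all genes (0.41). MHC class II, lymphocyte, microglial and complement lists lie farthest to the right, and the endothelial list falls to 0.02 without the highest cells.

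The groups also differed in genes tied to the animal's sex and in 1 gene tied to strain. Xist, the RNA of the inactive X chromosome of females, had 10 or more reads in 10 of 12 2AG cells and in 0 cells of the other 4 series. Y-linked genes had 10 or more reads in 8 of 9 21T, 8 of 10 21T2, 7 of 11 21T3 and 8 of 11 AG cells, and in none of the 12 2AG cells. The 2AG cells thus differ in sex genes from all other cells. Cwc22, a splicing factor whose copy number varies between mouse strains, was at 14.3 CPM against 305, 21.3-fold lower, with 30.2, 0.5 and 19.03 CPM against 330 in AG and 284 in 2AG. Of 3 tested genes that vary between strains, Cwc22 was called and the other 2 were not, at a median log2 ratio of -0.03. Whether sex or strain bears on other genes was not tested.

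The 21 Sox9 gRNA cells of the same batch and day were read against the same 23 no gRNA cells, so their values are set beside those above without a comparison of the 2 contrasts. B2m was at 1353 CPM there (1207 with the Trps1 gRNA), Ctss at 2127 (1614), Cx3cr1 at 685 (394) and Cd74 at 334 (1420). Adora2b was at 30.7 CPM (40.6), Gabrg1 at 63.4 (29.97), Dhcr7 at 34.0 (43.6) and Cwc22 at 19.4 (14.3). Sox9 itself was at 233 CPM (664) and Trps1 at 39.7 (57.6). Gbp2 was at 0 CPM (122), Vim at 15.4 (141) and Gfap at 314 (827). The microglial list summed to 13560.3 CPM in those cells.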

How the data were processed

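The deposited file of batch 5 holds counts: whole-number reads per gene and cell, with no normalization by the authors seen in the values. Per the submitters' processing notes, the tools were STAR 2.6.0a and RSEM 1.3.0 and the builds GRCm38 and mm10, and no order, role or strand setting is stated. Of 27849 gene rows, 27786 were given a symbol by ID. Rows naming no gene (DsRed, GFP and Lmo4_OE) held 0.137% of counts and stayed out of totals.

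Counts were summed per group and scaled to CPM with Python 3.11.15, numpy 2.4.6, pandas 2.3.3 and scipy 1.17.1. The size rule, intervals and pseudocount of 5 are given with the results, and the script was tested on simulated data. Genes were named by a rule: the targets and 4 markers, 15 genes each way with the largest ratio without the highest cells among called genes with series apart (20 CPM or more and 40% of cells or more in the higher pool), and for lists up to 6 members with the highest level plus those called. CT010467.1, P2ry12 and Tmem119 were named after their values were seen. The members and lists were chosen with earlier results of these data known. The deposited tables of the other batches were not used here.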

Additional observations from a re-analysis of the deposited data

Results flagged for a closer look

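Rows of the count table that name no gene were outside the comparisons. DsRed, a red fluorescent protein, was at 576 CPM (scaled to reads in genes) in the Trps1 gRNA cells against 0.397 in the no gRNA cells. Of the 30 Trps1 gRNA cells 26 had a read and 22 had 10 or more, and of the 23 no gRNA cells 5 had a read and none had 10. By title series DsRed was at 2199 in 21T, 273 in 21T2 and 134 in 21T3, with 10 or more reads in 8 of 9, 8 of 10 and 6 of 11 cells. In the in-slice controls it was at 129 CPM, from 2 of 5 libraries, the higher at 492. The labels do not say what the row is. Across the 30 cells DsRed and the microglial list had a Spearman coefficient of -0.03.

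Among 8 measures examined over the 5 in-slice controls, 1 library stood apart from the other 4 in 3: Adora2b (1.001 CPM against 0), Gabrg1 (19.9 CPM) and Trps1 (1.73 CPM against 0). Each rests on few reads. Adora2b and Trps1 had a read in only 1 of the 5 libraries, and the rule always flags such a gene. The nominal chance rate of about 1 in 20 therefore does not hold for such sparse counts.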

How the results depend on the processing

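No paired analysis was possible because the labels name no animal and the groups share no replicate number that ties cells together. The main rule gave 438 higher and 415 lower genes. Leaving out each title series in turn gave 286 to 2357 higher and 224 to 946 lower genes, of which 213 and 323 without AG, and 408 and 138 without 2AG, were also in the main set. Without genes of the in-slice controls 242 were higher. With 20 CPM added 201 were lower, and with the mean log2 level over cells 746 were. CPM without ribosomal RNA, an alternative chosen after seeing the data, gave 390 higher and 598 lower genes, among them 384 and all 415 of the main set. The cause of the other shifts was not tested. Of the alternative values of named genes' log2 ratios, 530 moved by less than the spread between title series and 48 by more. Of the list medians, 677 moved by less, 77 by more, and the endothelial one (1.65) ranged from -0.80 without 21T to 2.14 without 21T3. No pan-neuronal gene was left to test without genes of the in-slice controls. A floor of 3 reads is 0.170 CPM in the no gRNA pool and 0.113 CPM in the Trps1 gRNA pool.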
